A study of Mus musculus with 69 samples.

Results

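The naive pluripotency transcription factors described here are the 10 genes Klf2, Klf4, Klf5, Esrrb, Tbx3, Tfcp2l1, Nr0b1, Nr5a2, Prdm14 and Dppa3. They were taken by name from the 16263 genes of the mRNA-seq count table, where all 10 were listed, and the ATAC-seq peaks within 20 kb of each gene were added, 70 of 89596 accessible regions. The study compared WT J1 mouse embryonic stem cells (ESCs), a line of strain 129S4/SvJae from the inner cell mass of a blastocyst, with the CRISPR-Cas9-edited H3.3K27R clones Mut18 and Mut43. In both clones, lysine 27 of histone H3.3 was changed to arginine on both alleles of H3f3a and H3f3b, so that this H3.3 residue cannot be acetylated. WT cells carried no such edit, and each mutant line is a single clone. Each of the 3 lines gave 2 mRNA-seq and 2 ATAC-seq libraries, labelled as biological replicates. All 3 lines were grown on feeder cells and then passaged without feeders before harvest. The labels name no other treatment, and the edit replaces a codon, so the counts of H3f3a and H3f3b do not check the genotype.

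Mouse ESCs kept in culture resemble the early epiblast of the blastocyst, a condition called naive pluripotency. Leukaemia inhibitory factor acting through Stat3, Wnt signalling acting against Tcf7l1, and low FGF signalling favour a network of DNA-binding factors that is layered on the core factors Oct4, Sox2 and Nanog. The genes described here belong to that network, and most of them are shut down as cells move to the formative and primed states of the later epiblast. They are known for partly standing in for one another, and several of them aid reprogramming of somatic cells.

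The libraries held 14992756 to 15143998 counts over all genes. Whether reads were downsampled to these near-equal totals is not given in the sources used here, so they show the depth of the table and not that of the sequencing. All 8 markers of ESCs that were examined were present, at a summed 3811 to 4422 CPM (counts scaled to library size) per library. Across all 14061 genes that passed the filter on low counts, 48.0% were called in mutants against WT at an adjusted p under 0.05 by edgeR's quasi-likelihood test, 23.5% of all tested genes being higher in mutants. The median log2 fold change over all tested genes was -0.0041. Genes of chromosome 11 had a median of 0.39, and no naive factor lies on that chromosome. Medians of the 8 chromosomes that carry naive factors ran from -0.14 to 0.068. In bulk samples, fewer cells of a type and less RNA per cell cannot be told apart, and this holds for every transcript value below.

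Of the 10 naive factors, 9 were called higher in the mutants, none was called lower, and Klf5 did not pass the test. Dppa3 rose 3.6-fold, Prdm14 2.45-fold and Tbx3 1.99-fold. Klf2, Nr5a2 and Esrrb rose 1.60-fold, 1.57-fold and 1.33-fold, and Klf4, Nr0b1 and Tfcp2l1 rose by 1.19- to 1.25-fold. The 9 of 10 higher stand beside the 23.5% of all tested genes, and the median log2 fold change of the naive factors was 0.53. Dppa3 and Prdm14, 2 of 10, were called and beyond 2-fold higher, as were 3.28% of all tested genes. Tbx3 lay just short of 2-fold and made the count 3 in 6 of 15 alternatives, among them DESeq2 and the fit without WT replicate 1. In all 10 genes, Klf5 included, the 4 mutant libraries lay above both WT libraries in normalised read count, an arrangement found in 29.4% of tested genes.

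**Figure D1:**
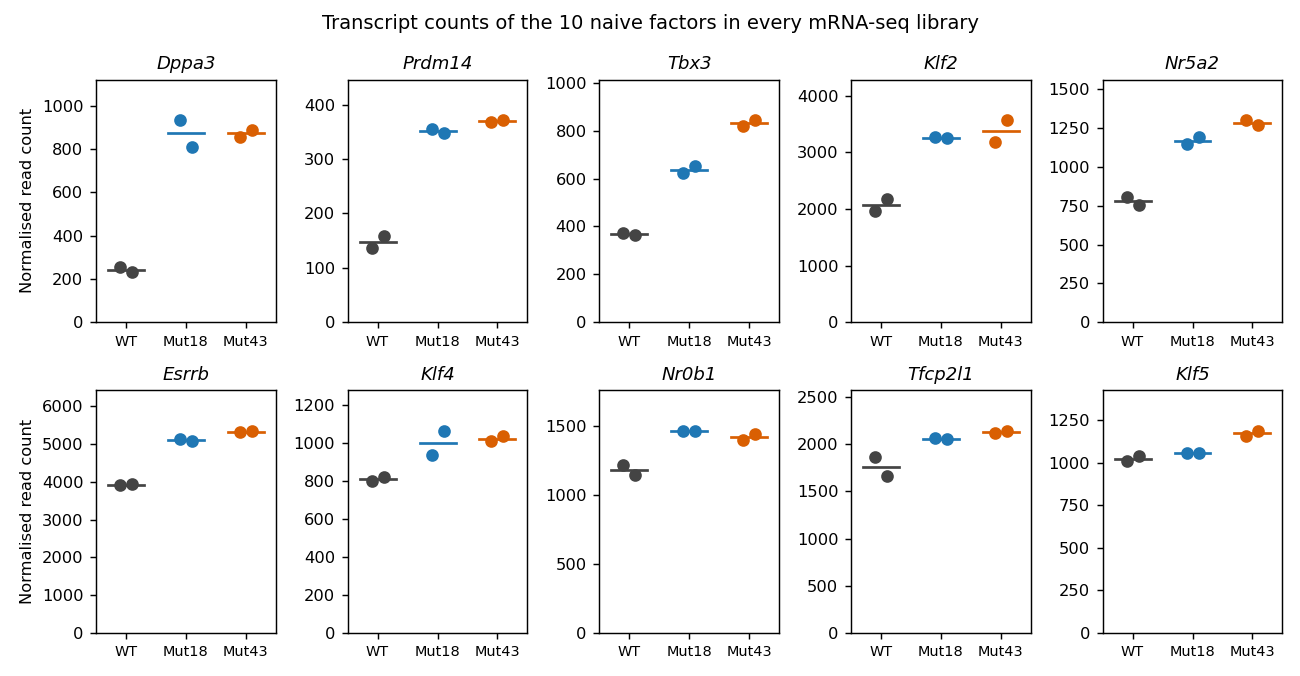
Normalised read counts of each naive factor (vertical axes, from 0) in the 2 libraries each of WT, Mut18 and Mut43. Points are libraries and bars are line means. Mutant points sit above both WT points in all 10 panels, by the least in Klf5, where the lowest mutant library was 1.01 times the highest WT library.

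Per length of transcript, the factors covered a wide range in WT. Klf2 was highest at 74.5 RPKM, a count scaled to transcript length and depth (70.8 and 78.1 in the 2 libraries). Nr0b1 at 43.4 and Esrrb at 43.1 RPKM followed, with ranges that overlapped, so that their order is not resolved. Dppa3 (18.1) and Klf4 (17.7) came next and also overlapped, as did Klf5 (13.1) with Tfcp2l1 (12.4). Nr5a2 lay at 8.79 RPKM. Prdm14 (3.81) and Tbx3 (3.70) were the lowest and overlapped. In the mutants Dppa3 stood at 65.0 RPKM and was second of the 10 after Klf2 at 119 RPKM, whereas Nr0b1 and Esrrb lay between them in WT. Prdm14 and Tbx3 remained the lowest in level at 9.34 and 7.36 RPKM, although only Dppa3 had a larger fold.

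Prdm14 and Dppa3 had the largest changes. Prdm14 is a DNA-binding PR-domain protein required for primordial germ cells, which in ESCs recruits Polycomb complexes and holds down FGF signalling and de novo DNA methyltransferases. The gene lies on chr1:13113457-13127163 (GRCm38, minus strand). WT libraries had 137 and 158 normalised read counts, Mut18 libraries 355 and 348, and Mut43 libraries 367 and 371. Both clones were well separated from WT, with the lowest mutant library 2.20 times the highest WT library. The log2 fold change was 1.29 (SE 0.090, n = 2 and 4, edgeR adjusted p = 4.11e-10).

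Dppa3, also called Stella, is a maternal-effect and germ-cell factor that protects methylated DNA in the zygote and varies from cell to cell in ESC cultures. It lies on chr6:122626410-122630272 (plus strand). WT libraries held 254 and 231 normalised counts, Mut18 held 934 and 812, and Mut43 held 855 and 890. WT lay below both clones, and the Mut18 values enclosed those of Mut43. The log2 fold change of 1.85 (SE 0.077, edgeR adjusted p = 2.38e-13) was above those of 99.3% of tested genes. A processed copy of Dppa3 is annotated on the X chromosome, and how the authors' counting dealt with reads shared by such copies is not given in the sources used here.

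Among the nuclear receptors, Nr5a2 changed the most. Nr5a2, or Lrh-1, is an orphan receptor that binds and maintains the Oct4 gene and can replace Oct4 in reprogramming. It lies on chr1:136842571-136960448 (minus strand). The 2 WT libraries had 805 and 758 normalised counts, the Mut18 pair 1145 and 1191, and the Mut43 pair 1302 and 1269. Every mutant library was higher than WT, and both Mut43 libraries were higher than both Mut18 libraries. Nr5a2 rose by 0.65 on the log2 scale (SE 0.057, edgeR adjusted p = 1.14e-08).

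Esrrb, the oestrogen-related receptor beta, is a target of Nanog and of Gsk3 inhibition that sustains self-renewal. It lies on chr12:86361117-86521628 (plus strand). WT libraries had 3901 and 3944 normalised counts, Mut18 had 5127 and 5083, and Mut43 had 5311 and 5348. The spread within each line was small beside the step from WT to mutants, which was 0.41 on the log2 scale (SE 0.040, edgeR adjusted p = 3.68e-08). Nr0b1, or Dax1, is an X-linked receptor without a classical DNA-binding domain that binds Oct4, Esrrb and Nr5a2 proteins. It lies on chrX:86191764-86195947 (plus strand). WT gave 1218 and 1147 normalised counts, Mut18 1464 and 1467, and Mut43 1397 and 1447. The change of 0.29 (log2, SE 0.046, edgeR adjusted p = 2.93e-05) was called but small, the lowest mutant library being 1.15 times the highest WT library.

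The Kruppel-like factors Klf2, Klf4 and Klf5 bind GC-rich elements and are partly interchangeable in ESCs. Klf2, on chr8:72319033-72321656 (plus strand), is held stable when Mek is inhibited. Normalised counts of 1969 and 2173 were found for WT, 3268 and 3259 for Mut18, and 3181 and 3572 for Mut43. The lines did not overlap with WT, and the log2 fold change was 0.68 (SE 0.052, edgeR adjusted p = 1.32e-09). Klf4, on chr4:55527143-55532466 (minus strand), is a direct target of Stat3 and a classical reprogramming factor. WT gave 801 and 824 normalised counts, Mut18 939 and 1066, and Mut43 1010 and 1040. Klf4 rose by 0.32 on the log2 scale (SE 0.057, edgeR adjusted p = 9.45e-05), with the 2 Mut18 libraries as the extremes of the mutant values.

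Klf5, on chr14:99298691-99315036 (plus strand), is needed for the inner cell mass and trophectoderm. Normalised counts of 1009 and 1041 were found for WT, 1058 and 1055 for Mut18, and 1158 and 1188 for Mut43. Mut18 lay just above WT and Mut43 clearly above both. Pooled over the clones, the log2 difference was 0.12 (SE 0.055, edgeR adjusted p = 0.0742), so that Klf5 alone of the naive factors was not called in that comparison. It was called at 0.15 without Mut18 replicate 1 or without Mut18 replicate 2 (edgeR adjusted p = 0.041 and 0.0422), and with scaling factors computed without chromosome 11 (edgeR adjusted p = 0.0345). The 3 Kruppel-like factors therefore had log2 differences of 0.68, 0.32 and 0.12, with Klf2 the only one beyond 1.5-fold.

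Tfcp2l1 and Tbx3 belong to other families. Tfcp2l1, a grainyhead-related factor downstream of Stat3 and Wnt signalling, lies on chr1:118627945-118685168 (plus strand). WT gave 1864 and 1661 normalised counts, Mut18 2066 and 2054, and Mut43 2120 and 2144. The WT libraries differed more from each other than the mutant libraries did, and the log2 fold change was 0.25 (SE 0.048, edgeR adjusted p = 2.03e-04). Without WT replicate 2 the change was 0.18, and in Mut18 alone it was then 0.15 and no longer called (edgeR adjusted p = 0.0512). Tbx3, a T-box factor that can sustain ESCs in place of leukaemia inhibitory factor and also acts in extraembryonic endoderm, lies on chr5:119670669-119684724 (plus strand). Normalised counts of 374 and 364 were found for WT, 622 and 653 for Mut18, and 818 and 844 for Mut43, 3 steps with no overlap. It rose by 0.99 on the log2 scale (SE 0.105, edgeR adjusted p = 1.34e-07). An antisense gene, Tbx3os1, overlaps the Tbx3 locus, and without stated strand use in the counting its reads cannot be told apart from those of Tbx3.

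Taken clone by clone, 9 of 10 factors were called higher in Mut18, against 20.3% of tested genes, and 10 of 10 in Mut43, against 22.9%. Both contrasts share the WT libraries, so they are not independent. Dppa3 had a log2 fold change of 1.85 in Mut18 and in Mut43, and Prdm14 had 1.26 and 1.33. Klf2 (0.66 and 0.71), Esrrb (0.38 and 0.44), Klf4 (0.30 and 0.34), Nr0b1 (0.31 and 0.27) and Tfcp2l1 (0.23 and 0.27) were close in the clones. Klf5 was 0.044 in Mut18 (edgeR adjusted p = 0.554) and 0.20 in Mut43 (edgeR adjusted p = 0.00443, and 0.0529 without Mut43 replicate 2). Tbx3 was 0.79 and 1.17, past 2-fold in Mut43 and short of it in Mut18.

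Tested directly, Mut18 and Mut43 differed in 1 of the 10 factors, Tbx3, and in 0.327% of all tested genes. Tbx3 was lower in Mut18 by 0.38 on the log2 scale (edgeR adjusted p = 0.00694). With any one mutant library left out, the difference was 0.35 to 0.42 and the edgeR adjusted p was 0.104 to 0.353, and with DESeq2 the adjusted p was 0.0639. Klf5 (-0.15) and Nr5a2 (-0.14) had unadjusted p-values of 0.0101 and 0.0177 between the clones and edgeR adjusted p-values of 0.373 and 0.429. For Dppa3 the difference between the clones was 0.002, with a 95% confidence interval from -0.15 to 0.15.

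**Figure D2:**
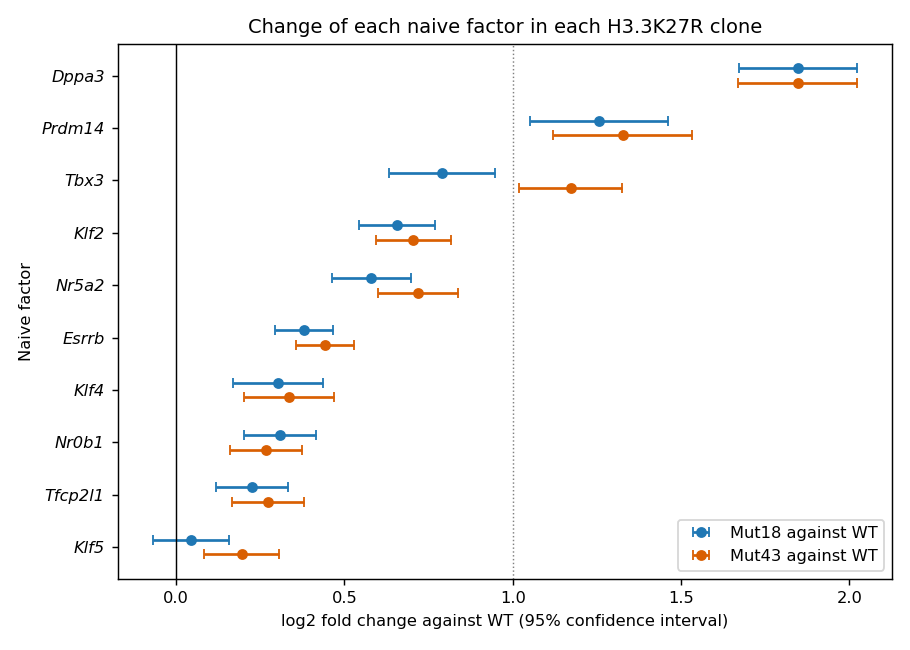
The log2 fold change of each naive factor (vertical axis) against WT in Mut18 and Mut43 (horizontal axis, log2 scale), as points with 95% confidence intervals, with the dotted line at 2-fold. Dppa3 and Prdm14 lie beyond 2-fold in both clones, and Tbx3 has 0.79 in Mut18 and 1.17 in Mut43.

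Other genes of the naive state, which are not among the 10 factors, were mostly higher as well. Of 11 tested, 9 were called higher, against 23.5% of all tested genes, and 1 lower, against 24.5%. The remaining 1 did not pass, and the median log2 fold change was 0.47. Pecam1, an adhesion molecule of the inner cell mass, rose by 1.07 on the log2 scale, and Zfp42, which encodes the ESC marker Rex1, rose by 0.72. Gbx2, a homeobox factor downstream of Stat3, fell by 0.41. Of the 5 core pluripotency factors, 2 were higher, 2 lower and 1 not called, beside the same shares of all tested genes. Their median was -0.009. Sox2 (0.22) and Nanog (0.20) were higher, whereas Pou5f1, which encodes Oct4, fell by 0.28 and Utf1, a chromatin factor of ESCs, fell by 0.19.

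Most genes of the formative and primed states were lower in the mutants. Of 13 tested, 9 were called lower, against 24.5% of all tested genes, and 6 of these beyond 2-fold, against 5.65%. Etv4 was called higher and 3 genes did not pass, Otx2 (-0.056), Dnmt3a (-0.049) and Foxd3 (0.070), and the median of the list was -0.78. T, the mesoderm factor Brachyury, fell by 2.63 on the log2 scale, from 247 and 243 normalised counts in WT to a mean of 39.4 in mutants. Fgf5, a marker of the primed epiblast, fell by 2.58. Etv4, an ETS factor downstream of FGF signalling, rose by 0.41. Each of these lists was drawn up with earlier results of these data known, and their counts are a description.

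Signals that act upstream of the naive factors were divided. Of 15 genes tested, 4 were higher, 6 lower and 5 not called, with a median of -0.057. Over all tested genes, 23.5% were higher and 24.5% lower. Lifr, the receptor of leukaemia inhibitory factor, rose by 0.65 on the log2 scale, and Stat3, which acts below it, rose by 0.31. Dusp6 and Spry2, feedback inhibitors that are induced by FGF signalling, fell by 0.85 and by 0.52. These are the largest called changes in each direction. On the same list Jak1 fell by 0.22, and Etv5 was not called (0.006). Among relatives of the factors in the same families, 25 were tested, of which 6 were higher, 3 lower and 16 not called. Their median was 0.083, and the share called higher was near the 23.5% of all tested genes. Klf17, a relative of Klf2 and Klf4, rose by 2.54 from 3.91 and 1.96 normalised counts in WT to a mean of 17.7, and Prdm1, the germ-cell regulator Blimp1, rose by 1.09. Klf6 and the epithelial factor Grhl2 fell by 0.78 and by 0.48.

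**Figure D3:**
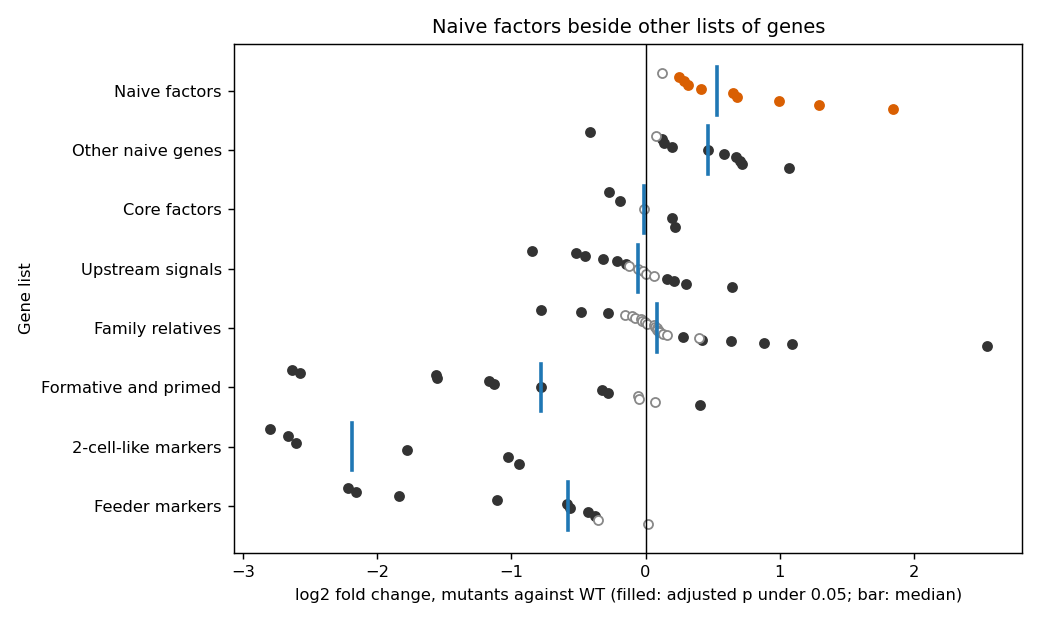
The log2 fold change of mutants against WT (horizontal axis) for each tested gene of 8 lists (vertical axis), with filled points for adjusted p under 0.05 and blue bars for list medians. The naive factors have a median of 0.53, the other naive genes 0.47 and the formative and primed genes -0.78.

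Markers of other cells moved with genotype too, beside 23.5% of all tested genes called higher and 24.5% called lower. Markers of 2-cell-like cells, a rare population of ESC cultures, were lower in 6 of 6 tested genes, and their summed level was 104 to 112 CPM in WT and 14.6 to 19.2 CPM in mutants. Zscan4f fell by 2.80 on the log2 scale and Zscan4c fell by 2.67, both of which have near-identical copies. Markers of feeder fibroblasts were lower in 8 of 10 tested genes, with a sum of 371 to 463 CPM in WT and 217 to 328 CPM in mutants. Postn fell by 2.22 and Col3a1 fell by 2.16, and Col3a1 was itself uneven in WT at 843 and 257 normalised counts. Primitive endoderm markers were 2 higher, 2 lower and 3 not called, with sums of 63.8 to 67.8 and 109 to 120 CPM. The sum followed Lama1, a laminin chain, which rose by 1.29, with Gata4 up by 0.50, while Dab2 fell by 0.93. Foxa2 fell by 3.21 at low counts, from 10.7 and 14.7 normalised counts in WT to a mean of 1.26 in mutants. Trophoblast markers were 2 higher, 3 lower and 2 not called, with sums of 114.5 to 122.4 and 104.5 to 116.2 CPM, Hand1 (1.33) and Tfap2c (0.48) being higher and Cdx2 (-0.80) and Eomes (-0.73) lower. No marker of these lists that the table holds was at 0 in all 6 libraries, and 3 feeder, 3 primitive endoderm, 1 trophoblast and 2 2-cell-like markers had a mean under 1 CPM. Their part in the change of the naive factors was not tested. Without WT replicate 1, the library with the most feeder marker RNA, 9 of 10 factors were called, against 36.4% of all tested genes in either direction. WT replicate 2, at 370.5 CPM of feeder markers, was still above every mutant library.

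ATAC-seq marks accessible DNA by transposase insertion, and for each library the authors listed peaks with a fold enrichment over background. Peaks that overlapped between libraries were joined into regions. Esrrb had 16 regions, Prdm14 11, Dppa3 10, Nr5a2 7, Klf5 6, Tbx3 and Tfcp2l1 5 each, Klf2 and Klf4 4 each, and Nr0b1 2. By GENCODE, 24 of the 70 regions were intergenic, 25 lay in introns and 21 touched an exon. Some of these introns and exons belonged to other genes. These were Ncoa2 upstream of Prdm14, Gdf3 upstream of Dppa3, and Gm16064, Tbx3os1 and Tbx3os2 around Tbx3. Of the 70, 36 (51.4%) had a peak in all 6 libraries, against 54.7% of all regions. Peaks of the full WT pair without any mutant peak were seen in 2 regions (2.86%, against 3.25% of all regions), and peaks of the 4 mutant libraries without a WT peak in 1 (1.43%, against 0.733%). In 23 regions (32.9%) 1 or more whole lines lacked a peak, against 30.8% of all regions. The shares of 1 and 2 regions rest on few regions. The peak lists give no read numbers, and sequencing depth was not used here. WT replicate 1 had the most peaks at 78536, the others 63588 to 69811.

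**Figure D4:**
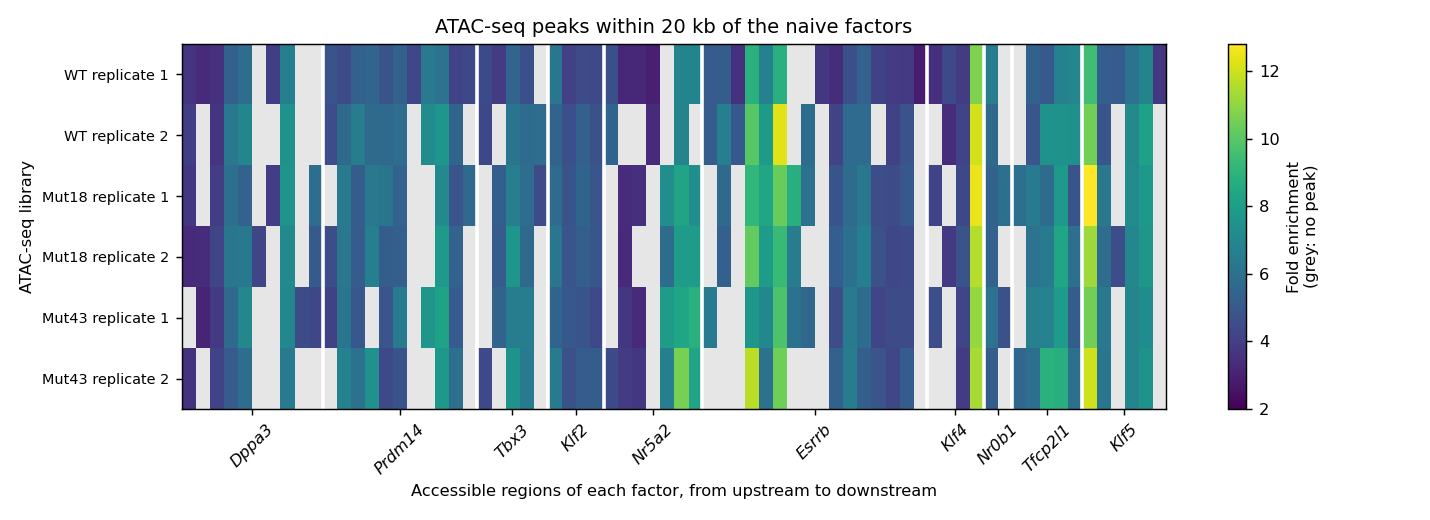
Fold enrichment of the ATAC-seq peak (colour) in each of 6 libraries (rows) for the 70 regions within 20 kb of the naive factors (columns, grouped by gene from upstream to downstream), with grey where no peak was listed. The brightest columns belong to Klf4 (mean 11.6) and Klf5 (mean 11.1), and most columns are filled in every line.

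Regions with listed peaks in every library of 1 genotype and in none of the other belonged to Nr5a2 and Esrrb. An intronic Nr5a2 region, 104 kb past the start site, had no peak in either WT library and fold enrichments of 7.30 and 5.81 in Mut18 and 7.93 and 6.65 in Mut43. An intronic Esrrb region, 37.9 kb past the start site, had fold enrichments of 3.57 and 4.98 in WT and no peak in any mutant library. A weak Nr5a2 region in the untranslated first exon of an internal start site, at chr1:136949113-136949380, likewise had 2.95 and 3.28 in WT and none in mutants. A neighbouring Nr5a2 region, chr1:136949479-136949649, had 3.24 in WT replicate 1 and 3.49 in Mut18 replicate 1. It had 3.34 and 3.73 in Mut43, so mutant peaks lay close by. The intronic pair is shown because its listed peaks fell in 1 genotype only. These patterns held for 2.86% (WT only) and 1.43% (mutants only) of the 70 regions, against 3.25% and 0.733% of all regions. In all sequences printed here, capitals mark matches to a motif searched on both strands. The motifs were AAGGTCA, the half-site of Esrrb and Nr5a2, GGGNGTGG, a GT-box of the Klf kind, ATTTGCAT, the octamer, TTCCNGGAA, a Stat3 site, and TATAAA, the TATA box. The sequences are of the RefSeq GRCm38.p6 assembly, from strain C57BL/6J and not from the 129 cells of the study. The Esrrb region, chr12:86398851-86399050 (plus strand), held 1 GT-box and the Nr5a2 region, chr1:136856301-136856566 (minus strand, as the gene), held TATAAA at 2 places.
Esrrb, WT libraries only: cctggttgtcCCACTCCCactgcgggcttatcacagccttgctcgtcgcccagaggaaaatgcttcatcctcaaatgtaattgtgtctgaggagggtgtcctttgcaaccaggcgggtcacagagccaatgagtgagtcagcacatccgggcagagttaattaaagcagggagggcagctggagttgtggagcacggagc
Nr5a2, mutant libraries only: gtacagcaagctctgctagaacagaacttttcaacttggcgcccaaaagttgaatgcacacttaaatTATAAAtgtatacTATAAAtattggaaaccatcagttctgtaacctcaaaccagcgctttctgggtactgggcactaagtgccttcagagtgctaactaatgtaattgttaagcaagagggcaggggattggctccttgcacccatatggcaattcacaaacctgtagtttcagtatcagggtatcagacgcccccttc

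Around the start sites, accessibility differed between factors. Klf5 had the strongest promoter region, with fold enrichments of 9.49 and 10.5 (WT), 12.8 and 11.2 (Mut18) and 10.5 and 12.0 (Mut43). The promoter regions of Klf2, Tbx3, Tfcp2l1, Nr0b1 and Prdm14 also had a peak in all 6 libraries, with mean fold enrichments of 5.08, 6.68, 5.90, 5.74 and 5.52. Dppa3 differed from these. The region at its outermost start site was a peak in 1 library only, Mut18 replicate 2, at 4.26. A region 1.24 kb past that site, near another annotated start site of the gene, had peaks in WT replicate 1 and Mut18 replicate 1. A region 1.71 kb before the Dppa3 start site was present in all 6 libraries, at 5.84 and 6.96 in WT and 5.38 to 6.99 in mutants, so that WT and mutants overlapped. Dppa3, the factor with the largest rise in transcript, had no listed peak at its outermost start site in 5 of 6 libraries. A peak that is not listed may lie just under the authors' threshold. The nearest region of Dppa3 with a peak in all 6 libraries did not separate the genotypes. Any link between these regions and the transcript was not tested.

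Klf4 likewise had only partial peaks at its start site. The nearest region, 0.12 kb before it, had 4.38 and 3.42 in WT, 3.85 in Mut18 replicate 2 and none elsewhere. Klf4 also had a region 0.57 kb before the start site, with 3.48, 4.16 and 4.56 in replicate 1 of WT, Mut18 and Mut43. Its strongest region, intergenic and 17.4 kb past the start site at chr4:55514666-55515322, reached 10.7 and 12.1 (WT), 12.5 and 11.6 (Mut18) and 11.1 and 11.4 (Mut43). That was the highest mean, 11.6, of the 70 regions, and the genotypes overlapped. The 300 bases around its summit, chr4:55514916-55515215 (minus strand, as the gene), are shown as the strongest accessible sequence near a naive factor and held the GT-box motif at 2 places.
Klf4, downstream region: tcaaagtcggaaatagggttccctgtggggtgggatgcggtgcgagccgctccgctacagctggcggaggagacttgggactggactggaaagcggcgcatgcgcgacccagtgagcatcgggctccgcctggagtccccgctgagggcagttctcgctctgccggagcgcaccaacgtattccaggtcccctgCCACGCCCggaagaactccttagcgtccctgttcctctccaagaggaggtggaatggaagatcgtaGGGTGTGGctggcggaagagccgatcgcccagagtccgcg

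Esrrb had no peak within 1 kb of its most upstream annotated start site, and the region nearest to it, 4.33 kb inside the gene, had 5.12 and 5.17 in WT, 6.41 in Mut43 replicate 1 and none elsewhere. A start site inside the gene had a region in all 6 libraries, at 6.75 and 7.88 (WT), 8.41 and 7.91 (Mut18) and 7.03 and 6.04 (Mut43). Its strongest region, 72.4 kb inside the gene, had a mean of 10.2. Nr5a2 had only weak regions close to its start sites, with means of 3.11 to 4.85, and a region nearest to the outermost start site, 2.08 kb inside the gene, with 4.65 and 5.47 in WT, 4.42 in Mut43 replicate 2 and none elsewhere. The strongest Nr5a2 region lay beyond the end of the gene, 121 kb past the start site. It had 6.88 and 6.87 in WT and 7.96 to 10.6 in mutants. In the comparison of centred fold enrichment described below, the log2 difference was 0.33 and was not called (limma adjusted p = 0.198).

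The remaining strongest regions lay for Klf2 7.72 kb before the start site (mean 5.93), for Tfcp2l1 20.3 kb inside the gene (7.86), for Prdm14 23.0 kb past the start site and downstream of the gene (7.47), and for Dppa3 7.00 kb past it and downstream (7.07). For Klf5, Tbx3 and Nr0b1 the promoter region was itself the strongest. These regions had peaks in all 6 libraries.

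Several regions lacked a peak in a whole line without separating WT from both clones. An Esrrb region 90.0 kb inside the gene had no WT peak and 8.83 and 6.54 in Mut18 and 6.08 in Mut43 replicate 1. A Dppa3 region 14.5 kb past the start site had no WT peak, 5.92 and 5.05 in Mut18 and 4.34 in Mut43 replicate 1. An Nr0b1 region 1.80 kb inside the gene had peaks in 1 library of each clone only, at 5.98 and 4.66, as did a Tfcp2l1 region 4.95 kb before the start site, at 5.96 and 5.66. In the other direction, an Esrrb region 34.4 kb inside the gene had peaks in WT (5.18 and 6.67) and in Mut18 (5.72 and 5.33) but in neither Mut43 library. A Prdm14 region 9.22 kb inside the gene had 6.43 and 7.20 in WT and only 7.62 in Mut43 replicate 1, and a Tbx3 region 13.6 kb upstream had 4.42 and 4.35 in WT and only 4.37 in Mut43 replicate 2. The rest were peaks of 1 library, 6 in all, or of 2, such as a Klf5 region 14.6 kb inside the gene (5.10 and 4.54), a Tbx3 region 20.6 kb past the start site (5.85 and 4.50) and a Prdm14 region 32.1 kb past it (4.34 and 5.74). A peak that is not listed may lie just under the authors' threshold, and no value is given for it. Peaks of other libraries may also lie in a neighbouring region. Beside the Tbx3 region 13.6 kb upstream, one at 13.1 kb had 3.92 in WT replicate 1. It had 5.22 and 5.14 in Mut18 and 5.45 in Mut43 replicate 1.

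The 36 regions present in all 6 libraries were compared by limma on log2 fold enrichment, each library centred on its median over 48984 such regions. None of the 36 was called at an adjusted p under 0.05, against 0.857% of all regions. At an unadjusted p under 0.05 there were 9 of 36, against 14.5% of all regions, and without WT replicate 1 there were 4 of 36, against 10.7%. Mutants were higher in 25 and lower in 11, a split for which the share over all regions was not counted. The median log2 difference was 0.085, against 0.019 over all regions, and single differences ran from -0.42 to 0.37. Without WT replicate 1 the median fell to 0.036, against 0.0079 over all regions.

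Promoter regions of the factors gave small differences. The log2 difference was 0.30 at Tfcp2l1 (95% confidence interval 0.07 to 0.52, limma adjusted p = 0.197), 0.27 at Tbx3 (0.05 to 0.48, limma adjusted p = 0.232) and 0.20 at Klf5 (-0.02 to 0.42, limma adjusted p = 0.381). It was 0.075 at Klf2 (-0.13 to 0.28, limma adjusted p = 0.785), -0.063 at Prdm14 (-0.31 to 0.18, limma adjusted p = 0.858) and -0.16 at Nr0b1 (-0.40 to 0.07, limma adjusted p = 0.533). The Prdm14 interval covers the region at its start site only, and its relation to the 2.45-fold rise of the transcript was not tested. Several of these values turned on 1 WT library. The difference at Nr0b1 was -0.018 without WT replicate 1 and -0.33 without WT replicate 2, and that at Tfcp2l1 was 0.42 and 0.16. The Tbx3 region also lies at the start of Tbx3os1. The lowest p-values, picked after the values were seen, belonged to an intergenic region 62.2 kb past the Tfcp2l1 start site, lower in mutants by 0.42 (7.02 and 7.40 in WT, 4.78 to 5.99 in mutants, limma adjusted p = 0.0838), and to an Esrrb region at an internal start site 109 kb into the gene, higher by 0.37 (3.40 and 4.23 in WT, 4.55 to 5.35 in mutants, limma adjusted p = 0.105).

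**Figure D5:**
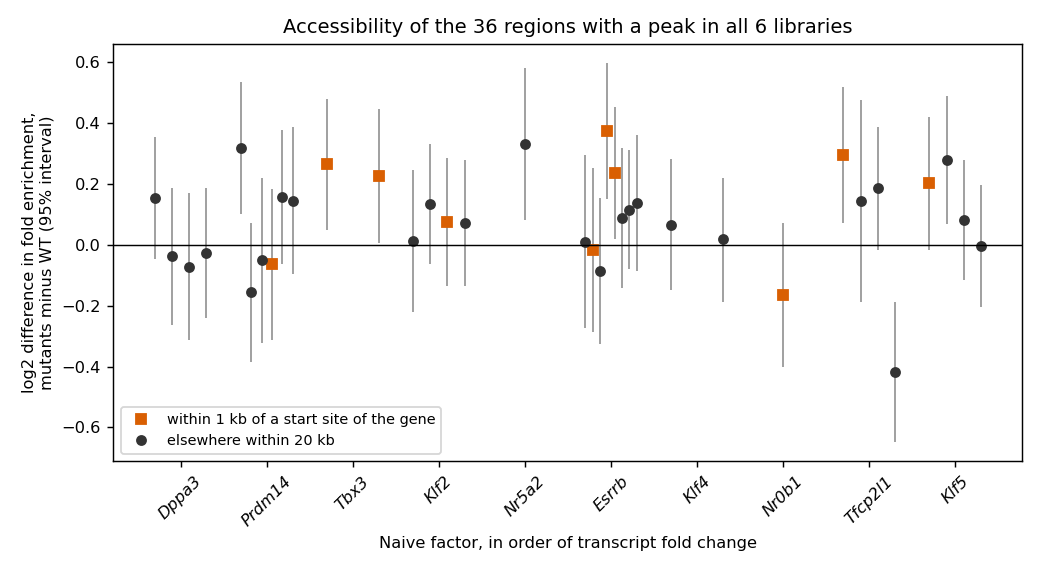
The log2 difference in centred fold enrichment, mutants minus WT (vertical axis), with 95% confidence intervals, for the 36 regions with a peak in all 6 libraries, grouped by factor (horizontal axis). Squares are regions within 1 kb of a start site of the gene and circles lie elsewhere within 20 kb. Differences ran from -0.42 to 0.37, and none was called.

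Promoter sequences from RefSeq (GRCm38.p6) matched 6 of the 10 factors, with 8 entries. No entry was held for Klf5, Tbx3, Prdm14 and Dppa3. The promoters of 4 factors with a region in all 6 libraries over them are shown, up to the first untranslated base, since their transcripts rose together. Klf2 (chr8:72318812-72319032) and Nr0b1 (chrX:86191525-86191763) end at the annotated start of the gene, as does Tfcp2l1 (chr1:118627695-118627944), and Esrrb (chr12:86421394-86421643) is the internal start site, all on the plus strand.
Klf2: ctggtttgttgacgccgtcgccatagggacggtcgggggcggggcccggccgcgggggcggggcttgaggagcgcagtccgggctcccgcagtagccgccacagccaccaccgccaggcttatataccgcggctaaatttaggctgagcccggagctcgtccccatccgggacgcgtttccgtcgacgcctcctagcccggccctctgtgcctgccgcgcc
Tfcp2l1: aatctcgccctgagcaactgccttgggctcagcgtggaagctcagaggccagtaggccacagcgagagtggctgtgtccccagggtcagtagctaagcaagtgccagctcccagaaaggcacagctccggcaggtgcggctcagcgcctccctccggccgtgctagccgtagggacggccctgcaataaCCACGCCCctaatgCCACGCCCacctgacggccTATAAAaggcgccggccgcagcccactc
Nr0b1: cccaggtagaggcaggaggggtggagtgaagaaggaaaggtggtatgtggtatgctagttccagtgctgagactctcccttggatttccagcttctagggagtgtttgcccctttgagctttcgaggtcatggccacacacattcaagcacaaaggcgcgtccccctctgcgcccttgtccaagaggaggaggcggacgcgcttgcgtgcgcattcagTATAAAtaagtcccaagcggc
Esrrb: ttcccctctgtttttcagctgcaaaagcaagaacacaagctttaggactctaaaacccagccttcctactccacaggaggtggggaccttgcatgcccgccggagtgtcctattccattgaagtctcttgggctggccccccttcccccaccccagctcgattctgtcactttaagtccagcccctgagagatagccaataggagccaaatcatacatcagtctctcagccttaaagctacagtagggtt

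The Klf2 promoter was rich in GC at 71.5%, and Tfcp2l1, Nr0b1 and Esrrb had 65.2%, 56.1% and 52.0%. Tfcp2l1 held the GT-box at 2 places and 1 TATAAA, Nr0b1 held 1 TATAAA, and none of the 5 motifs occurred in the printed stretches of Klf2 and Esrrb. Matches did not overlap one another. Over the 8 promoter entries of 300 bases, 2 held the GT-box and 3 the TATA box, against 17.6% and 13.6% of all 32851 promoter entries, and none held the half-site, the octamer or the Stat3 site (4.72%, 1.74% and 1.15% of all). Over windows of 300 bases around the summits of the 70 regions, the GT-box occurred in 21 (30.0%), against 17.9% of all regions. The half-site occurred in 5 (7.14%, against 5.65%), the octamer in 4 (5.71%, against 3.11%), TATAAA in 8 (11.4%, against 7.74%) and the Stat3 site in none, against 1.13%. These are counts of letters and not of bound factors.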

How the data were processed

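mRNA-seq and ATAC-seq of WT, Mut18 and Mut43 cells were used, 2 libraries per line and assay, grouped by the titles of the deposited data. The other samples of the series were not analysed here. The authors deposited raw read counts per gene, from a reference of mm10 joined to dm6, and ATAC-seq peaks called in each library with a fold enrichment (a ratio over background) and a -log10 q value, every peak being above 6. The submitters' processing notes name Bowtie2 2.3.4.2, STAR, SAMtools, DESeq2, deepTools 3.3.0 and MACS2. Which of them counted reads, with which annotation and strand setting, is not given in the sources used here.

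The count table was tested with edgeR 4.0.16 (R 4.3.3). Genes passing a minimum count of 10 and a minimum total of 15 (14061 genes) were scaled by TMM and tested by the quasi-likelihood F-test with Benjamini-Hochberg adjustment over all of them, WT (n = 2) against mutants (n = 4), and by line in a fit with 3 groups. Calls needed an adjusted p under 0.05. Normalised read counts are counts scaled by TMM. RPKM used the union of exon lengths in GENCODE M21. Replicates of a line differed by more than counting error (chi-square of 1.81 to 3.08 per gene). The p-values measure the spread between these libraries and not between independently derived lines. They therefore do not separate the edit from other differences between the lines.

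Peaks on chromosomes 1 to 19, X and Y were merged where they overlapped by 1 bp. A region keeps each library's highest fold enrichment and belongs to a factor if it lies within 20 kb of the gene, and it is a promoter region within 1000 bp of a start site of the gene. Regions with a peak in all 6 libraries were compared by limma 3.58.1 on log2 values centred in each library. GENCODE M21 and RefSeq GRCm38.p6 are of the same build as mm10. The edgeR test of mutants against WT, the merging of peaks and the limma comparison were tested on simulated data. Alternatives were DESeq2 1.42.0, limma-voom, other scalings, filters, windows and thresholds, a replicate block and each library left out.

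The genes and lists were chosen with earlier results of these data known. All 10 factors are named, and from each other list at most the 2 called genes with the largest change in each direction, with Jak1 added among the upstream signals. Of the regions, the one nearest the start site, the strongest, and those that lack a peak in a whole line are described for each factor.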

Additional observations from a re-analysis of the deposited data

Results flagged for a closer look

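Tbx3 differed between the clones. Its log2 difference, Mut18 minus Mut43, was -0.38 (edgeR adjusted p = 0.00694), with 622 and 653 normalised counts in Mut18 and 818 and 844 in Mut43, against 374 and 364 in WT. Both clones were above WT. The difference kept its direction in all 15 alternatives, and 5 of them, DESeq2 and each mutant library left out in turn, did not call it. Whether it belongs to the clones or to the cultures was not tested, since each clone is 1 line. None of the 10 factors, Tbx3 included, had a mutant library that stood apart from the other 3 by Dixon's criterion.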

How the results depend on the processing

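In 15 alternatives each, the 10 factors kept a higher level in the mutants together and in each clone. Of 495 fold changes recomputed, 485 kept their side of the threshold, 7 lost the call, 3 (all of Klf5) gained it and none changed direction. In mutants against WT, Dppa3 ran from 1.79 to 1.92 on the log2 scale, Prdm14 from 1.19 to 1.41, Tbx3 from 0.92 to 1.07 and Klf5 from 0.091 to 0.15. The count beyond 2-fold was 3, with Tbx3, under DESeq2 (against 2.39% of all tested genes), with no filter (3.24%), with TMM without chromosome 11 (3.53%), and without WT replicate 1 (2.91%) or either Mut18 replicate (3.3% each). The count of factors called between Mut18 and Mut43 was 0 with DESeq2 and 0 to 1 when a library was left out. For accessible regions, a window of 20 kb around the start site only left 21 with a peak in all 6 libraries (48.8%). No region of a factor was called in any alternative, but over all regions the calls fell from 420 to 2 without WT replicate 1 and to 2 without WT replicate 2. With each library left out, the log2 difference at the Klf2 promoter ran from -0.004 (without WT replicate 1) to 0.14 (without WT replicate 2), and that at the Prdm14 promoter from -0.14 (without Mut43 replicate 1) to 0.004 (without Mut43 replicate 2), never called. Replicate numbers do not pair the libraries (r = -0.012 to 0.024 between lines in mRNA-seq and -0.017 to 0.036 in ATAC-seq). With a replicate block, 9 factors were called in mutants against WT (47.0% of all tested genes), 2 of them beyond 2-fold (3.31%, higher), 9 in Mut18 (40.1%), 10 in Mut43 (45.9%), 1 between the clones (0.27%) and 0 regions (0.931% of all regions), and no call of a factor or of its regions changed. Sequencing depth of the ATAC-seq libraries was not used here, and 2 libraries per line limit the precision.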
